A study of Mus musculus with 8 samples.

Results

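Icam1, Vcam1, Sele, Selp, Itgal, Itga4 and Itgb1 encode adhesion molecules of the vessel wall and the integrin chains with which leukocytes hold on to them. They were chosen by symbol from the 25477 genes of the table, with the difference between the groups below already known. All 7 had a row in the count table. Of these, 5 (Icam1, Vcam1, Itgal, Itga4 and Itgb1) passed the filter on low counts and were fitted with the 16861 genes tested, while Sele and Selp missed it and are given as raw counts. Because the choice used this contrast, the values of the members are a description, and no test is given for them.

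Messenger RNA was sequenced from 4 retina libraries of mice labelled PD-L1 knockout (KO-CNV 1 to 4) and from 4 retina libraries labelled control (WT-CNV 1 to 4). PD-L1, encoded by Cd274, is a surface ligand that restrains immune cells, and all 8 retinas are named for choroidal neovascularization (CNV), the growth of new vessels from the choroid under the retina. The sources used here do not state how and when the lesions were made, the age and strain of the mice, which part of Cd274 was deleted and in which cells, whether animals were pooled, or whether choroid or pigment epithelium came with the retina. Nor do they tie each library to its own animal; p-values below thus measure only how these libraries spread, which may be technical.

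Leukocytes leave the blood in steps. Selectins on endothelium (E-selectin from Sele, P-selectin from Selp) catch passing cells by sugars on ligands such as PSGL-1, and chemokines then switch on the leukocyte integrins. The integrin αLβ2 (LFA-1, with its α chain from Itgal) binds ICAM-1, and α4β1 (VLA-4, from Itga4 and Itgb1) binds VCAM-1, which stops the cell before it crosses the wall. Icam1, Vcam1 and Sele are textbook target genes of NF-κB in activated endothelium, P-selectin is also stored in platelets, and β1 is a chain of many integrins outside the immune system.

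Promoter sequences of RefSeq (GRCm38.p6, the assembly of mm10) were matched for 5 of the 7 members by gene identifier. They are shown for the 3 vessel-wall genes among them, because Icam1 and Sele were higher in every KO-CNV library and because Sele and Selp, which lie 56.8 kb apart on chromosome 1, had different patterns across libraries. Each run covers the 250 bases before the annotated start on the plus strand, 5′ to 3′. The start used for Sele lies inside the span of the gene record. Capitals mark matches to GGG and CC with NNNNN between them (an NF-κB motif), TTCNNNGAA (STAT) and TGANTCA (AP-1), searched on both strands, and in Icam1 also GGAAATTCC, a narrower NF-κB form that was added after the sequence had been seen.
Icam1, chr9:21015690-21015939: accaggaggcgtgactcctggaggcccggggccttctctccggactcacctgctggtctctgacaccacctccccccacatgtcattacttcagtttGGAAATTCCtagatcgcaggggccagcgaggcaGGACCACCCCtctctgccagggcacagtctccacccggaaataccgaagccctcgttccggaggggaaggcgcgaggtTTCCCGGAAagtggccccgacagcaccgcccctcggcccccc
Sele, chr1:164047984-164048233: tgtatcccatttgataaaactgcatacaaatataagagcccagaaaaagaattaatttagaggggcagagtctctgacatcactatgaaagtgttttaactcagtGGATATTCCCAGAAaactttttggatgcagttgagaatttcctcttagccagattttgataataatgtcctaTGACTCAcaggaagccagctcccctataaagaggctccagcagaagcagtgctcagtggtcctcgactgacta
Selp, chr1:164115014-164115263: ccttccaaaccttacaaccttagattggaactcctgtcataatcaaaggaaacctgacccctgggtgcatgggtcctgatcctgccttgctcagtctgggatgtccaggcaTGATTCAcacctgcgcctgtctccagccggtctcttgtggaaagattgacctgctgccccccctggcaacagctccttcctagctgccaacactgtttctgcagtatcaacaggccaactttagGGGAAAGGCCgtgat
The Icam1 window held GGAAATTCC starting 153 bases before the start, GGACCACCCC at 120 and TTCCCGGAA at 42. In Sele, GGATATTCCC began 145 bases before the start and overlapped the STAT match TTCCCAGAA at 140, and TGACTCA lay at 73. Selp held GGGAAAGGCC at 15 and TGATTCA at 139. The windows of Itga4 and Itgb1 held no match to any of these letters. Among 32851 promoter windows of 300 bases, 50.8% held the first of these NF-κB forms, 8.3% TTCNNNGAA, 7.81% TGANTCA and 0.317% GGAAATTCC. The commonest of these motifs is thus in about as many promoters as not, and a match is a string of letters, not a measured site.

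The libraries held 31743404 to 36438248 counts each, so that 1 count was 0.028 to 0.0314 CPM (a count relative to the scaled library size). Cd274 held 12, 15, 9 and 11 counts in KO-CNV 1 to 4 and 148, 117, 153 and 165 in WT-CNV 1 to 4. The groups were far apart (p = 0.0286 by an exact permutation test, two-sided, where 70 arrangements can give nothing smaller). Transcripts of retinal neurons were abundant in all 8 libraries: 6 photoreceptor and bipolar cell markers, Sag, Gnat1, Pde6b, Nrl, Opn1sw and Grm6, summed to 15710 to 22220 CPM in KO-CNV and 15290 to 18810 CPM in WT-CNV. Lens transcripts summed to 2652 CPM in KO-CNV 3 and to 6212 and 1808 CPM in WT-CNV 2 and 3, against 2.66 to 46.6 CPM in the other 5 libraries. The members are therefore also given without these 3. Of the genes tested, 430 passed an edgeR adjusted p of 0.05, which is 2.55%, and 203 of them were higher (1.20%) and 227 lower (1.35%) in KO-CNV. With library totals alone as the scale the split was 207 higher and 131 lower, or 61.2% higher in place of 47.2%.

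Icam1 encodes ICAM-1, the immunoglobulin-type ligand of LFA-1, and its transcript was scarce but higher in every KO-CNV retina (Entrez gene 15894, chromosome 9, 21015940 to 21028814). It had 61, 58, 77 and 64 counts in KO-CNV 1 to 4, against 30, 26, 20 and 17 in WT-CNV 1 to 4. The KO-CNV libraries lay close together and the groups did not overlap. The level was 1.85 ± 0.215 CPM in KO-CNV and 0.719 ± 0.196 CPM in WT-CNV (SD, n = 4 each), a log2 fold change of 1.36 with a standard error (SE) of 0.31. Leaving out any 1 library moved this value to between 1.22 and 1.51. It was 1.28 without the 3 lens-rich libraries, and 1.59 when only KO-CNV 3 was set against WT-CNV 2 and 3. An antisense gene, Gm47079, overlaps Icam1 by 511 bases in the GENCODE annotation (GRCm38), another, Gm43109, overlaps Vcam1 by 1238, and the strand setting of the counting is not known. In whole tissue, fewer cells of a type and less RNA per cell cannot be told apart.

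Vcam1 encodes VCAM-1, the ligand of α4β1 (Entrez gene 22329, chromosome 3, 116110020 to 116129688). In whole retina its transcript was the most abundant among Icam1, Vcam1, Sele and Selp, and which cells held it was not tested. Its counts were 1287, 633, 1081 and 1045 in KO-CNV 1 to 4, against 501, 489, 396 and 588 in WT-CNV 1 to 4. KO-CNV 2 stood near the controls, at 18.3 CPM against 17.4 CPM in WT-CNV 4, and the other KO-CNV libraries were at 29.9 to 36.4 CPM. The means were 28.7 ± 7.52 CPM in KO-CNV and 15.2 ± 2.17 CPM in WT-CNV (SD, n = 4 each), a log2 fold change of 0.92 (SE 0.18). Without KO-CNV 1 it was 0.78 and without KO-CNV 2 it was 1.08, the extremes over single libraries left out, and it was 0.78 without the 3 lens-rich libraries. Icam1 and Vcam1 showed little correlation within groups in these libraries. The Pearson correlation of their log2 CPM, after each group's mean was subtracted, was 0.10 over the 8 libraries, and 41.8% of the tested genes had at least that value with Icam1. With so few libraries, this value cannot tell whether the genes vary together.

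The selectins were near the limit of detection. Sele, which is made by activated endothelium and hardly at all by resting vessels, had 10, 5, 4 and 5 counts in KO-CNV 1 to 4 and 0 in each WT-CNV library (Entrez gene 20339, chromosome 1, 164039614 to 164058487). A count of 0 in a WT-CNV library allows up to 0.0887 to 0.0942 CPM (3 counts). The summed counts, 24 in KO-CNV against a floor of 3 counts over the WT-CNV group, make Sele at least 7.5-fold higher in KO-CNV, a bound that allows for counting error in WT-CNV alone. Without the 3 lens-rich libraries the same bound was 4.25-fold. Selp had 1, 9, 12 and 1 counts in KO-CNV 1 to 4 and 1, 1, 1 and 0 in WT-CNV 1 to 4 (Entrez gene 20344, chromosome 1, 164115264 to 164150026). Its 23 counts in KO-CNV came almost wholly from KO-CNV 2 and 3, and KO-CNV 1 and 4 were at the level of the controls. The ratio of the sums, each per total counts, was 7.19 (exact 95% interval 2.17 to 37.4 for counting error only). It was 4.65 without KO-CNV 3 and 7.01 without the 3 lens-rich libraries. KO-CNV 1 was thus the highest library for Sele and among the lowest KO-CNV libraries for Selp. On the other strand, the antisense gene Gm16587 overlaps Selp by 2935 bases and the noncoding gene Gm16548 by 1436 bases in the GENCODE annotation. Neither had counts of its own here. Since the strand setting of the counting is not known, reads from the shared stretches cannot be assigned, and the Selp ratio carries this limit. Of the 7 members, 3, Icam1, Vcam1 and Sele, had groups that did not overlap, in each case with KO-CNV higher. Among the 16861 genes tested, which leave out Sele and Selp, this was so for 5.19%. The members were chosen with this contrast known, so this share is given for scale only.

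**Figure D1:**
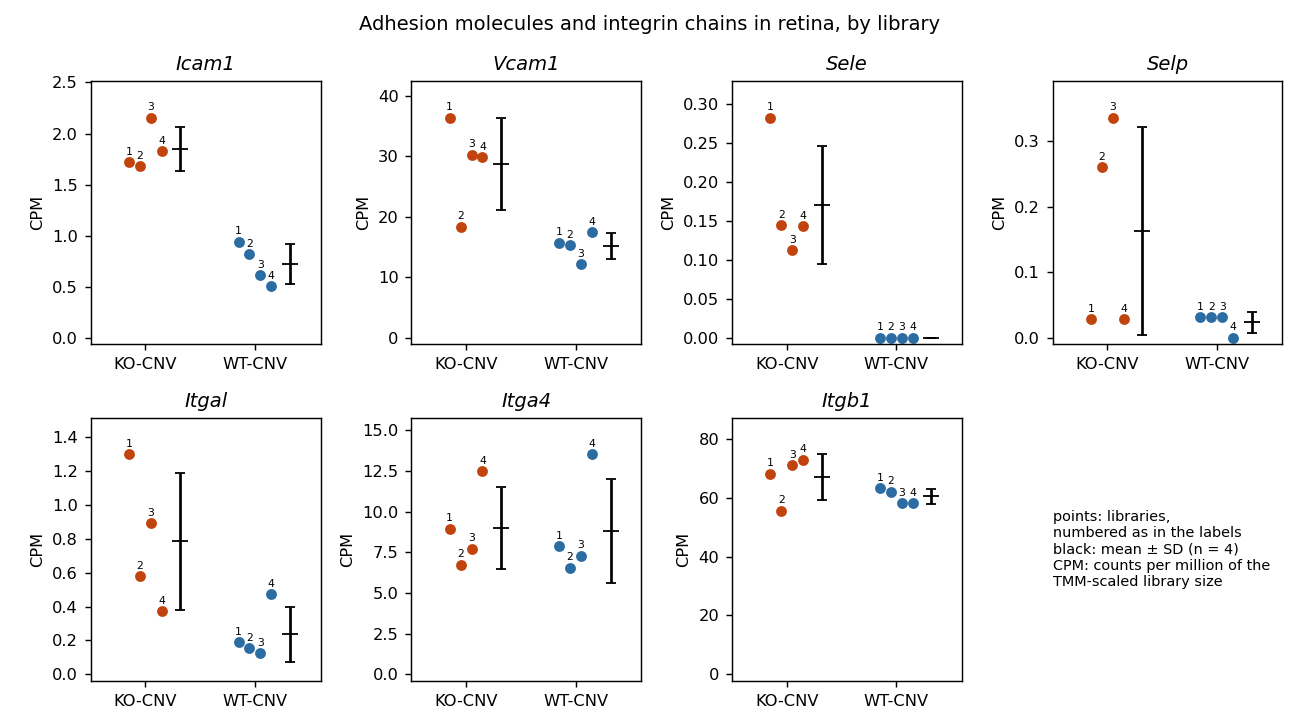
CPM (counts relative to the scaled library size, linear axis from 0) of the 7 members in each KO-CNV library (left of each panel) and WT-CNV library (right), with points numbered by library and black bars for mean ± SD (n = 4). Icam1 and Vcam1 had higher values in all 4 KO-CNV libraries, Sele was 0 in every WT-CNV library, Selp was raised in KO-CNV 2 and 3 alone, and Itga4 was high in 1 library of each group.

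Of the integrin chains, Itgal differed most between the group means and also varied most within them. It encodes αL, which pairs with β2 on leukocytes (Entrez gene 16408, chromosome 7, 127296139 to 127335137). Its counts were 46, 20, 32 and 13 in KO-CNV 1 to 4, against 6, 5, 4 and 16 in WT-CNV 1 to 4. WT-CNV 4 lay above KO-CNV 4, and without WT-CNV 4 the groups would be apart. The level was 0.786 ± 0.404 CPM in KO-CNV and 0.235 ± 0.161 CPM in WT-CNV (SD, n = 4 each), a log2 fold change of 1.72 (SE 0.54). This value was 2.31 without WT-CNV 4, 1.36 without KO-CNV 1 and 1.17 without the 3 lens-rich libraries.

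The chains of the VCAM-1 receptor hardly differed. Itga4, encoding α4, had 317, 233, 276 and 437 counts in KO-CNV 1 to 4 and 252, 209, 237 and 457 in WT-CNV 1 to 4 (Entrez gene 16401, chromosome 2, 79255426 to 79333114). Library 4 was the highest in both groups, and the groups overlapped. The log2 fold change was 0.03 (SE 0.24), and its sign turned without KO-CNV 4 (-0.18), without WT-CNV 1, 2 or 3 (-0.02, -0.08 and -0.06) and without the 3 lens-rich libraries (-0.18). Itga4 overlaps the end of Cerkl, which lies on the other strand, by 2581 bases in the GENCODE annotation. Cerkl held 1215 to 1272 counts in KO-CNV and 779 to 1170 in WT-CNV, and since the strand setting of the counting is not given, reads from the shared stretch cannot be assigned.

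Itgb1, the β1 chain shared by many integrins, had 2416, 1922, 2538 and 2555 counts in KO-CNV 1 to 4 and 2023, 1978, 1893 and 1966 in WT-CNV 1 to 4 (Entrez gene 16412, chromosome 8, 128685654 to 128733579). KO-CNV 2 was the lowest of all 8 libraries in CPM and the other KO-CNV libraries were the highest. The log2 fold change was 0.15 (SE 0.09), between 0.10 and 0.22 when any 1 library was left out and 0.12 without the 3 lens-rich libraries. Vcam1 and Itgb1 deviated together within groups more than any other pair of the 5 fitted members, with a correlation of 0.76 over 8 libraries, where 2.25% of the tested genes had at least that value with Vcam1. KO-CNV 2 was the lowest KO-CNV library for both.

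Levels can be compared between genes only per gene length, in FPKM (counts relative to the gene's length and the library's total). In KO-CNV retinas the order was Itgb1 at 16.1 ± 1.92, Vcam1 at 8.53 ± 2.36, Icam1 at 0.721 ± 0.0715, Itga4 at 0.685 ± 0.196, Itgal at 0.147 ± 0.0782, Selp at 0.0471 ± 0.0454 and Sele at 0.0429 ± 0.0203 FPKM (SD, n = 4). The ranges of Icam1 and Itga4 overlapped there, as did those of Itgal and Selp and of Selp and Sele. In WT-CNV retinas Itgb1 was at 14.3 ± 0.689, Vcam1 at 4.43 ± 0.641, Itga4 at 0.663 ± 0.240, Icam1 at 0.277 ± 0.0770, Itgal at 0.0431 ± 0.0295 and Selp at 0.00675 ± 0.00450 FPKM (SD, n = 4), with Sele listed at 0. Icam1 thus lay below Itga4 in the controls, while Icam1 and Itga4 were not separated in KO-CNV. In the controls the neighbours in this order had ranges apart from each other, except Selp and Sele.

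The transcripts that followed Icam1 and Vcam1 most closely within groups were different genes. Among 13406 named genes with a mean of at least 1 CPM, those with the highest correlation with Icam1 over the 8 libraries were Gsta3 (0.97), Mlana (0.96), Krt8 (0.96), Npc2 (0.96) and Fcrls (0.95). Those with the highest correlation with Vcam1 were H2-K1 (0.97), Ddx4 (0.97), Zfp57 (0.96), Rab40b (0.96) and Cwc22 (0.96). The points share library and depth, and with 8 libraries and this many genes such values are a description of these libraries only.

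The retina was sampled as whole tissue, so marker transcripts of other cell types are given beside the members. In edgeR 6 of 12 markers of microglia and macrophages rose in KO-CNV. So did 1 of 12 endothelial, 1 of 6 leukocyte, 1 of 6 pigment epithelium and 1 of 7 Müller glia markers. No marker of these lists was called lower, but all 4 tested erythrocyte markers were. Of all genes tested, 1.20% were called higher and 1.35% lower, and a single called marker does not describe its whole list. The lymphocyte, neutrophil and platelet lists held no called marker, but most of their markers missed the filter on low counts and could not be called. Those tested were 1 of 11 measured T and NK markers, 0 of 5 B lymphocyte, 2 of 8 neutrophil and 2 of 6 platelet markers. Endothelial markers, 12 of 12 in the table, summed to 295 to 319 CPM in KO-CNV and 218 to 304 CPM in WT-CNV, with WT-CNV 4 inside the KO-CNV range. Relative to these markers Icam1 was at 5.66 to 6.78 counts per 1000 endothelial counts in KO-CNV and at 1.65 to 3.75 in WT-CNV. Vcam1 was at 61.8 to 123 per 1000 in KO-CNV and at 55.1 to 70.6 in WT-CNV. The groups were apart on this scale for Icam1 and overlapped for Vcam1, where KO-CNV 2 fell among the controls. Kdr and Flt1 made up 81.3 to 86.7% of the endothelial sum in KO-CNV and 85.9 to 89.5% in WT-CNV, while Vwf, the called marker, had a log2 fold change of 1.58 (edgeR adjusted p = 0.0444) and the median over the 12 markers was 0.54. Relative to the other 10 markers, a choice made after seeing the data, Icam1 was at 36.2 to 42.4 per 1000 in KO-CNV and at 11.9 to 34.2 in WT-CNV, so that WT-CNV 1 came close to the KO-CNV libraries. Vcam1 overlapped there too, at 463 to 794 per 1000 in KO-CNV and 413 to 571 in WT-CNV. Relative to 7 markers of Müller glia, the supporting cells of the retina, Icam1 was at 0.349 to 0.491 counts per 1000 in KO-CNV and at 0.121 to 0.224 in WT-CNV, and Vcam1 was at 3.80 to 10.2 per 1000 in KO-CNV and at 3.59 to 4.19 in WT-CNV. Pigment epithelium markers (6 of 6) summed to 145 to 296 CPM in KO-CNV and 87.3 to 176 CPM in WT-CNV. The median log2 fold change over these 6 markers was 0.93, beside 0.92 for Vcam1. KO-CNV 1, the lowest KO-CNV library for these markers, was the highest for Vcam1. The part of these cells in the levels of Icam1 and Vcam1 was not tested.

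Markers carried by all leukocytes (6 of 6) summed to 33.9 to 41.3 CPM in KO-CNV and 21.2 to 34.4 CPM in WT-CNV, and those of microglia and macrophages (12 of 12) to 170 to 222 CPM in KO-CNV and 96.8 to 147 CPM in WT-CNV. Itgal was at 31.5, 17.1, 22.5 and 9.61 counts per 1000 leukocyte-marker counts in KO-CNV 1 to 4 and at 5.47, 5.62, 5.02 and 22.4 in WT-CNV 1 to 4. WT-CNV 4 had the lowest leukocyte sum and the highest Itgal among the controls. Lymphocyte markers were close to absent: among 11 measured T and NK markers, 8 averaged under 0.1 CPM, Cd3d, Cd3e, Cd3g and Cd4 among them, and the list summed to 1.62 to 2.94 CPM in KO-CNV and 1.12 to 1.82 CPM in WT-CNV. KO-CNV 1 was highest both for this sum and for Itgal. KO-CNV 4, the next highest for this sum at 2.23 CPM, was the lowest KO-CNV library for Itgal. WT-CNV 4, the highest control library for Itgal, had the lowest sum, at 1.12 CPM. B lymphocyte markers summed to 0.476 to 0.753 CPM in KO-CNV and 0.296 to 0.971 CPM in WT-CNV, and neutrophil markers to 3.22 to 4.52 CPM in KO-CNV and 1.05 to 3.85 CPM in WT-CNV, with Ly6g and Mpo under 0.1 CPM. Platelet markers summed to 5.97 to 8.02 CPM in KO-CNV and 5.73 to 8.82 CPM in WT-CNV, but Gp1bb made up 75.8 to 86.6% of this sum in KO-CNV and 71.0 to 86.1% in WT-CNV, and Ppbp, Gp9 and Gp6 averaged under 0.1 CPM. Erythrocyte markers moved the other way, at 1.68 to 4.03 CPM in KO-CNV and 10.1 to 14.5 CPM in WT-CNV. The part of blood and immune cells in the levels of the integrin chains and selectins was not tested.

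**Figure D2:**
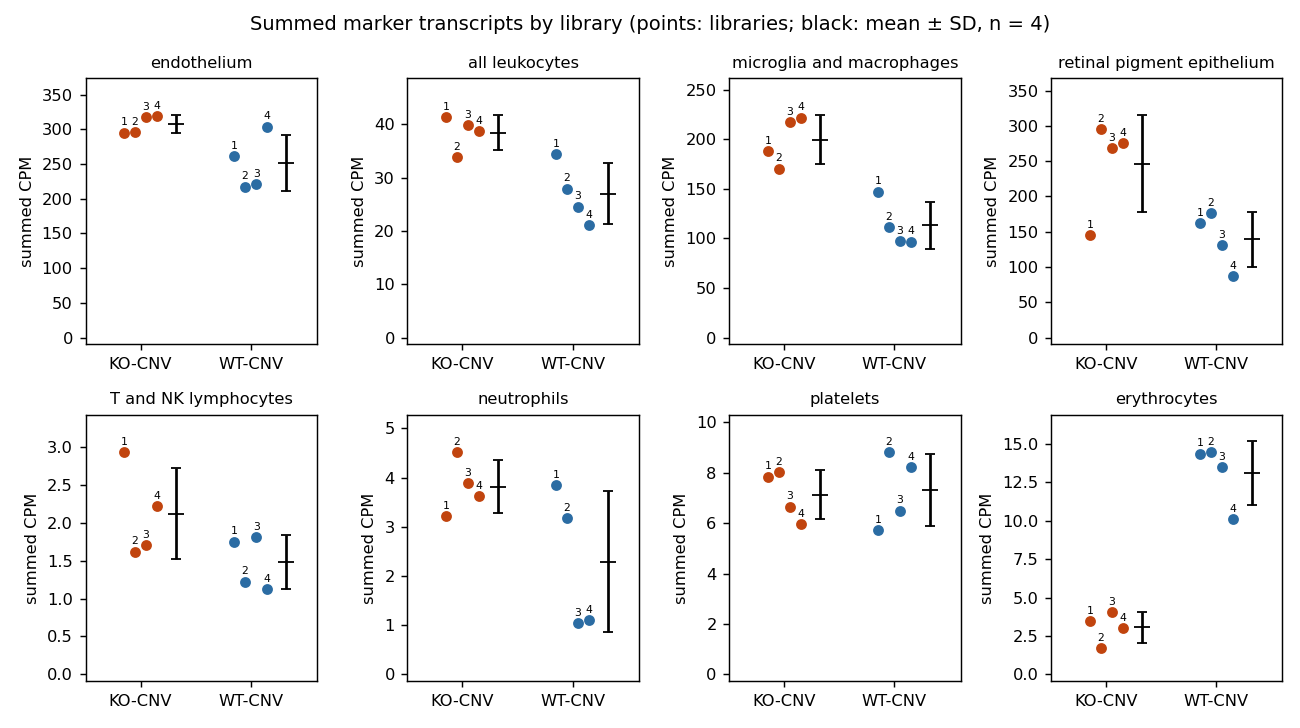
Summed CPM of marker lists for 8 cell types in each KO-CNV library (left of each panel) and WT-CNV library (right), with points numbered by library and black bars for mean ± SD (n = 4). Sums for microglia and macrophages were higher and those for erythrocytes lower in all 4 KO-CNV libraries, while endothelial, lymphocyte, neutrophil and platelet sums overlapped between the groups.

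The other genes of leukocyte adhesion were listed by role, with earlier results of these data known, so the shares below are a description. Of 99 listed genes, 82 were tested, and 6 rose in KO-CNV while none fell (edgeR, adjusted over all genes tested). That is 7.32% of those tested, beside 2.55% of all genes. At an unadjusted p under 0.05, 27 were higher and 4 lower, where 10.5% of all genes tested were higher and 10.8% lower. DESeq2 called 15 higher and 1 lower, Rap1a, where it called 3.97% of all genes higher and 4.98% lower. The counts for each role below are to be read against the same shares. Positive log2 fold changes were found for 63 of the 82 (76.8%, beside 49.8% of all genes tested), with a median of 0.23 beside 0.00. The number of calls changed with the libraries used: 1 was made without KO-CNV 3, 2 without KO-CNV 4, WT-CNV 2 or WT-CNV 3, and 23 were made without WT-CNV 4. Without the 3 lens-rich libraries none of these genes passed in edgeR, with 10 of 84 higher and none lower at an unadjusted p under 0.05, beside 3.60% of all genes higher and 3.92% lower in that fit. The log2 fold changes of the 6 called genes were positive in each of these fits. With any 1 library left out they were 0.44 to 0.58 for Cd44, 0.60 to 0.74 for Cd34, 0.92 to 1.13 for Itgam, 0.63 to 0.81 for F11r, 0.47 to 0.60 for Msn and 0.92 to 1.07 for Osmr. Without the 3 lens-rich libraries they were 0.43, 0.55, 0.90, 0.81, 0.34 and 0.86 for the same genes in that order. With the title number as a block, 3 passed.

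Among the leukocyte integrin chains other than Itgal and Itga4, 1 of 4 tested rose. Itgam, the αM chain of the complement receptor CR3 on microglia and other myeloid cells, was at 7.80 ± 1.06 CPM in KO-CNV and 3.77 ± 0.668 CPM in WT-CNV (SD, n = 4 each; log2 fold change 1.05, SE 0.18, edgeR adjusted p = 0.0116). Its 8.73, 6.29, 8.14 and 8.06 CPM in KO-CNV 1 to 4 all lay above the 4.07, 4.02, 2.77 and 4.20 CPM in WT-CNV 1 to 4. The call was lost without KO-CNV 3 (adjusted p = 0.0518) and without the 3 lens-rich libraries (adjusted p = 0.347). Itgb2, the β2 chain that both αL and αM need, was named after its values had been seen: it stood at 4.01, 3.24, 4.51 and 4.29 CPM in KO-CNV 1 to 4 and 3.32, 1.00, 1.75 and 1.66 CPM in WT-CNV 1 to 4 (log2 fold change 1.05, SE 0.31, edgeR adjusted p = 0.0861), with WT-CNV 1 just above KO-CNV 2. Itgb7, the other partner of α4, had 0 to 12 counts in KO-CNV and 3 to 22 in WT-CNV and was too low to test; it too was named after its values had been seen. None of 10 other α partners of β1 passed in edgeR, with 3 higher and none lower at an unadjusted p under 0.05 and 1 higher by DESeq2. Their fold changes were positive in all 10. The smallest p belonged to Itga9, whose product with β1 also binds VCAM-1, at a log2 fold change of 0.57 (SE 0.17, edgeR adjusted p = 0.0888), and to the fibronectin receptor chain Itga5, at 0.70 (SE 0.24, edgeR adjusted p = 0.129).

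Of the selectin ligands and the enzymes that make their sugars, 2 of 14 tested rose. Cd44, a hyaluronan receptor that can carry E-selectin ligand sugars, was at 20.9 ± 2.96 CPM in KO-CNV and 14.5 ± 0.597 CPM in WT-CNV (SD, n = 4 each; log2 fold change 0.53, SE 0.12, edgeR adjusted p = 0.0402). Cd34, a sialomucin of endothelium and blood progenitors, was at 7.86 ± 1.03 CPM in KO-CNV and 4.96 ± 0.422 CPM in WT-CNV (SD, n = 4 each; log2 fold change 0.66, SE 0.16, edgeR adjusted p = 0.0444). Both were higher in every KO-CNV library than in any WT-CNV library. Cd44 lost the call without KO-CNV 3 or 4 or any of WT-CNV 1 to 3 (adjusted p up to 0.153), and Cd34 without any library but WT-CNV 4 (up to 0.162). With the title number as a block their adjusted p were 0.0647 and 0.0697. Of the other immunoglobulin-type adhesion molecules, none of 4 passed in edgeR, 1 was higher at an unadjusted p under 0.05 and DESeq2 called none. Mcam, an endothelial and pericyte adhesion molecule, had a log2 fold change of 0.58 (SE 0.22, edgeR adjusted p = 0.167), and Icam5, a neuronal member of the ICAM family, of 0.57 (SE 0.34, edgeR adjusted p = 0.348).

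Of the genes of docking and passage through the wall, 2 of 14 tested rose. F11r, which encodes the junctional adhesion molecule JAM-A, a further LFA-1 ligand, was at 9.16 ± 0.755 CPM in KO-CNV and 5.50 ± 0.918 CPM in WT-CNV (SD, n = 4 each; log2 fold change 0.74, SE 0.16, edgeR adjusted p = 0.0340). Msn, encoding moesin, which ties the tails of ICAM-1 and VCAM-1 to actin, was at 44.7 ± 5.86 CPM in KO-CNV and 31.1 ± 3.87 CPM in WT-CNV (SD, n = 4 each; log2 fold change 0.52, SE 0.12, edgeR adjusted p = 0.0381). F11r lost the call without any library but WT-CNV 4 (adjusted p up to 0.110) and with the title number as a block (0.0655), and Msn without any library but KO-CNV 1 or WT-CNV 4 (up to 0.144). Of the proteins that switch integrins on, none of 14 passed in edgeR, with 2 higher and 2 lower at an unadjusted p under 0.05, close to the shares of all genes, and 1 higher and 1 lower by DESeq2. The GTPase gene Rap1a had a log2 fold change of -0.36 (SE 0.11, edgeR adjusted p = 0.0904) and the adaptor Skap2 of 0.54 (SE 0.18, edgeR adjusted p = 0.116).

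Receptors of the cytokines that induce adhesion molecules had 1 called gene among 10. Osmr, the oncostatin M receptor, was at 20.7, 23.4, 22.2 and 22.8 CPM in KO-CNV 1 to 4 and 13.0, 9.17, 10.8 and 11.8 CPM in WT-CNV 1 to 4. The difference was 0.99 on the log2 scale (SE 0.12, edgeR adjusted p = 0.00177), and it was past the threshold in each of the 8 fits that left out 1 library, but not without the 3 lens-rich libraries (adjusted p = 0.0749). None of the 8 chemokines tested passed in edgeR, with 3 higher and none lower at an unadjusted p under 0.05 and 1 higher by DESeq2. Cxcl10, an interferon-induced chemokine that draws T cells, was at 2.26, 0.405, 2.35 and 1.89 CPM in KO-CNV 1 to 4 and 0.157, 0.628, 0.339 and 0.444 CPM in WT-CNV 1 to 4 (log2 fold change 2.13, SE 0.54, edgeR adjusted p = 0.0568). KO-CNV 2 lay among the controls, as it nearly did for Vcam1. Ccl5, a chemokine of T cells and monocytes, had 23, 8, 31 and 29 counts in KO-CNV 1 to 4 and 2, 10, 7 and 2 in WT-CNV 1 to 4 (log2 fold change 1.97, SE 0.60, edgeR adjusted p = 0.0959), again with KO-CNV 2 inside the control range. Of 4 sheddases, which cut adhesion molecules from the surface, none passed in edgeR or by DESeq2, and 1 was lower at an unadjusted p under 0.05. Adam17, which sheds VCAM-1, had a log2 fold change of -0.24 (SE 0.09, edgeR adjusted p = 0.149), and Adam8 of -0.28 (SE 0.15, edgeR adjusted p = 0.309).

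**Figure D3:**
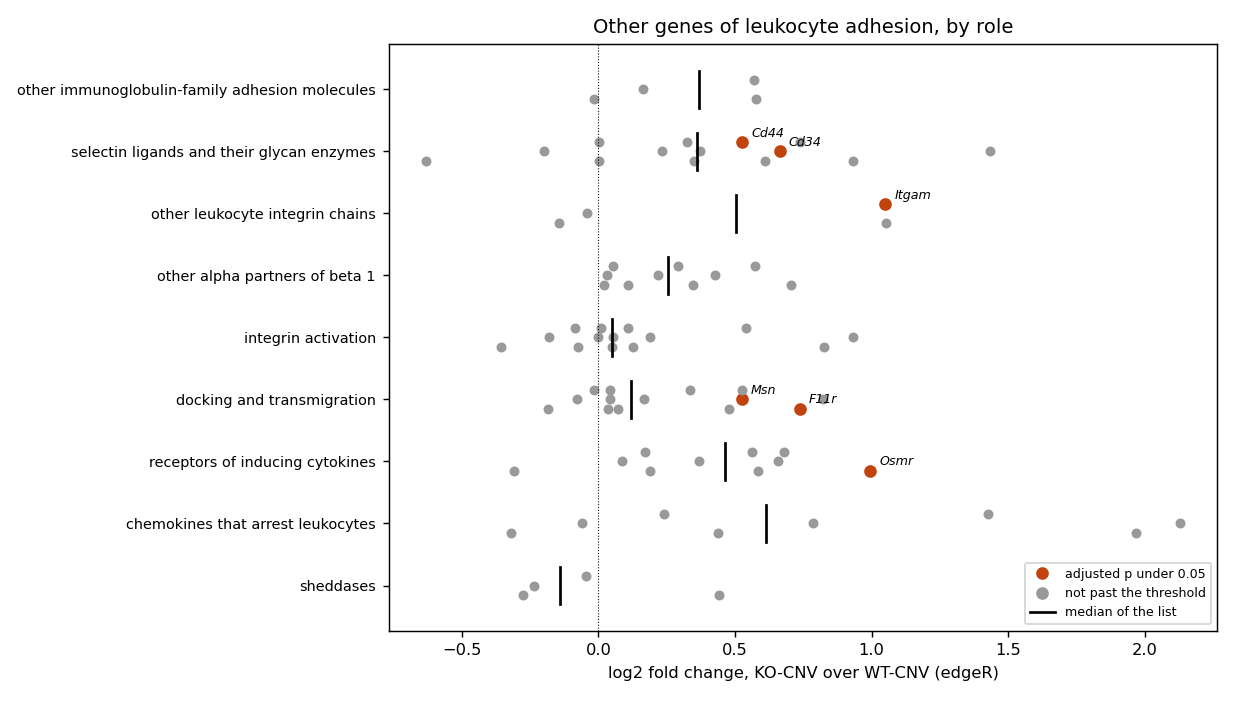
Log2 fold change (KO-CNV over WT-CNV, edgeR) of the 82 tested genes of leukocyte adhesion outside the 7 members, grouped by role; each point is a gene, red points passed an adjusted p of 0.05 and black bars are list medians. The 6 red points, Cd44, Cd34, Itgam, Msn, F11r and Osmr, lie to the right of 0, and the sheddases have the lowest median.

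The fold changes of the 5 fitted members were recomputed with other scalings, filters, tools and sets of libraries. Icam1, Vcam1, Itgal and Itgb1 were positive in every one of these fits, and Itga4 was near 0 on either side. Vcam1 ranged from 0.78 to 1.15 over all of them. Icam1 and Itgal were much smaller on the log2(FPKM + 1) scale, at 0.43 and 0.13, where a level far under 1 FPKM is swamped by the added 1. The filter of 1 CPM in at least 4 libraries removed Itgal.

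**Figure D4:**
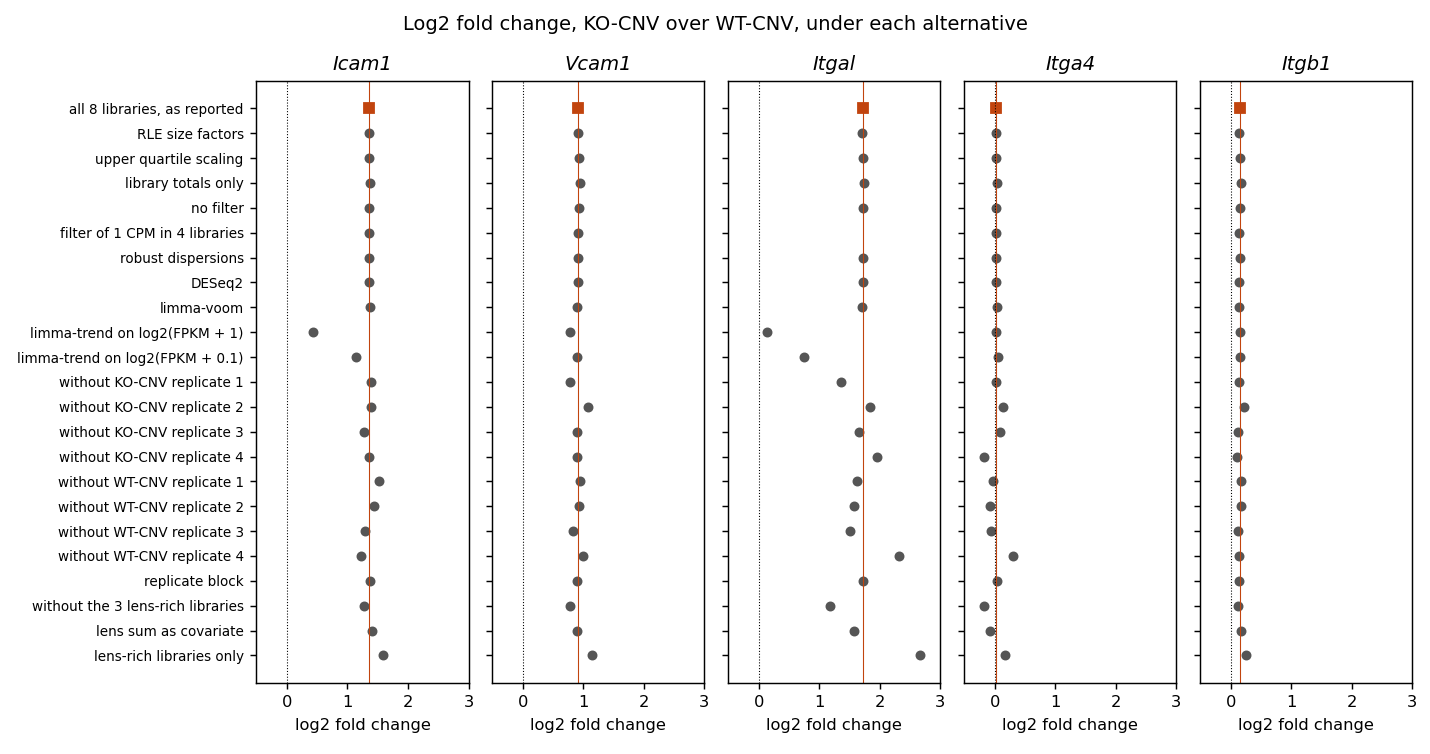
Log2 fold change (KO-CNV over WT-CNV) of the 5 fitted members, one panel each, for all 8 libraries as reported (red square and line) and under each alternative (grey points); the dotted line marks 0. Vcam1 stays between 0.78 and 1.15, Itgal has the widest spread, and Itga4 falls on both sides of 0.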

How the data were processed

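For the 8 libraries, the authors deposited a raw count of reads for each of 25477 genes, with no normalization. The authors also deposited FPKM, which equal each count over its library's total and 1 fixed length per gene. Per the labels' protocols, TRIzol served for RNA isolation and a VAHTS Universal V6 kit for library preparation. Per the submitters' processing notes, fastp, HISAT2 and HTSeq were used, with the build mm10. The sources used here give no versions, annotation, strand setting or filters.

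The tests used edgeR 4.0.16 (R 4.3.3), with TMM scaling, filterByExpr (minimum count 10, minimum total count 15) and a quasi-likelihood test of KO-CNV against WT-CNV with no covariate, tested first on simulated data. Two-sided p-values were adjusted with the Benjamini-Hochberg method over the 16861 genes tested, with a threshold of 0.05. A positive log2 fold change means higher in KO-CNV, and its SE is that value over the root of F. CPM use TMM-scaled library totals. Counting intervals and floors do not cover PCR duplicates. Correlations used log2 CPM with a prior count of 2.

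The members, lists and lens-rich libraries were chosen with earlier results of these data known. Named genes were, per list, those past the threshold, or the 2 with the smallest p where none passed; exceptions are marked. Marker lists not discussed in the results (melanocytes, astrocytes, pericytes and smooth muscle, fibroblasts, surface epithelium) are given with the other observations. The numbers in the titles are not said to pair the libraries. Alternatives were RLE, upper quartile or no scaling factors, no or a stricter filter, robust dispersions, DESeq2 1.42.0, limma 3.58.1 (voom, and trend on log2(FPKM + 1) and log2(FPKM + 0.1)), a block for the title number, leaving out single libraries, and the lens-rich libraries left out or their log2 lens sum as a covariate. The lens-rich libraries alone, and the endothelial markers without Kdr and Flt1, were added after seeing the data.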

Additional observations from a re-analysis of the deposited data

Results flagged for a closer look

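Of 84 sets of 4 libraries looked at (the members, the genes named and the marker sums, in each group), 6 had a library far from the other 3, where chance gives about 1 in 20. The lens marker sum was 2650 CPM in KO-CNV 3 and at most 31.1 CPM in the other KO-CNV libraries. The surface epithelium sum was 20.2 CPM in WT-CNV 2 and at most 4.46 CPM in the other WT-CNV libraries, and this library was also the highest for lens transcripts. Itgam was at 2.77 CPM in WT-CNV 3, below 4.02 to 4.20 CPM in the other WT-CNV libraries. Mcam was at 2.28 CPM in WT-CNV 3 and at 3.40 to 3.54 CPM in the other WT-CNV libraries. Itga9 was at 6.19 CPM in WT-CNV 2 and at 8.43 to 8.87 CPM in the other WT-CNV libraries. Selp was 0 in WT-CNV 4, where each of the other WT-CNV libraries held 1 count, a difference of 1 read.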

How the results depend on the processing

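The number of genes changed, 430 as reported, was 108 to 3209 with each library left out, 690 with no filter, 1392 by DESeq2, 228 on log2(FPKM + 1), 266 with the lens covariate, 15 without the 3 lens-rich libraries and 3026 in those 3 alone. The 6 changed genes of leukocyte adhesion became 1 to 23 with each library left out, 16 by DESeq2, 3 with the lens covariate, 0 without the 3 lens-rich libraries and 24 in those alone. With the title number as a replicate block, 228 genes and 3 of the leukocyte adhesion genes passed; 2 of the 4 same-numbered pairs deviated together with a correlation over 0.1 (0.213 and 0.121), so the numbers were not taken as pairs. Among the members, Icam1 was at 0.43 on log2(FPKM + 1), and Itgal at 0.13 on that scale, 0.75 on log2(FPKM + 0.1) and 2.65 in the lens-rich libraries alone. The Sele bound was 4.25-fold without the lens-rich libraries. The cause of these shifts was not tested. A pseudocount shrinks fold changes at low levels, and the fits also differ in the number of libraries. Cd274 was past the threshold in all 22 alternatives. At this depth, differences in Selp, Sele and Itgb7 rest on a few reads per library.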

Other observations

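Transcripts tied to sex did not point one way. Of 5 such genes listed, 3 were in the table. Xist, the X-inactivation transcript of female cells, held 97550 to 119479 counts in KO-CNV and 108626 to 164308 in WT-CNV. Eif2s3y of the Y chromosome had 0 or 1 counts in KO-CNV and 0 to 6 in WT-CNV. Kdm5d, also of the Y chromosome, held 452 to 963 counts in KO-CNV and 0 to 4 in WT-CNV.

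The remaining marker sums overlapped between the groups, except for the surface epithelium. Melanocyte markers summed to 37.9 to 84.2 CPM in KO-CNV and 34.7 to 151 CPM in WT-CNV, astrocyte markers to 86.1 to 115 CPM in KO-CNV and 67.2 to 99.1 CPM in WT-CNV, pericyte and smooth muscle markers to 75.1 to 83.4 CPM in KO-CNV and 79.4 to 94.7 CPM in WT-CNV, and fibroblast markers to 22.9 to 33.6 CPM in KO-CNV and 28.6 to 32.9 CPM in WT-CNV. Surface epithelium keratins summed to 0.791 to 2.27 CPM in KO-CNV and 2.57 to 20.2 CPM in WT-CNV.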
